A study of Gasterosteus aculeatus with 12 samples.

Results

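The sex chromosome of the threespine stickleback is chromosome XIX, and the open chromatin described here lies on its X-specific part, taken as every ATACseq peak of that chromosome whose summit was at or past 2.5 Mb from its start. The rule found 1036 peaks, 2.89% of the 35808 peaks in the list, over the 17.7 Mb from 2.5 Mb to the end of the last peak at 20.24 Mb. The other 269 peaks of the chromosome had their summits before 2.5 Mb. Positions, and no measured level, chose the peaks. Coordinates are those of the gasAcu1 assembly, counted from 1.

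Chromatin accessibility was measured in primary spermatocytes, the germ cells that go through meiosis I in the testis, from wild-derived strains of the River Tyne in Scotland. There were 3 marine and 3 freshwater pools, each made from the testes of 3 adult males taken in the winter part of the light cycle, and each pool gave 50000 cells sorted by light scatter (size and complexity). A library of naked DNA was also made from each pool, and the labels name no treatment. The 6 ATACseq libraries were merged into 1 peak list, so that no peak had a value per pool, no value carried an error between pools, and marine and freshwater fish were not compared. The list names no genes, so the cell type could not be checked against marker genes.

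In ATACseq, a transposase cuts DNA that is not covered by packed chromatin, and the cuts pile up as peaks at promoters, enhancers and other accessible elements. Stickleback males are XY. The X and the Y pair and recombine only in the pseudoautosomal region at one end of chromosome XIX, and along the rest of the chromosome the Y has diverged and males carry a single full X. Regions of a sex chromosome that stopped recombining at different times are called strata. During meiosis the unpaired parts of sex chromosomes are packed differently from the autosomes in many animals, best known from mammals. The number of X copies and of Y reads was not measured in these data.

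Each peak had a width, a fold enrichment and a summit, the base with the most reads. The fold enrichment is the ratio of the reads at the summit to a local background that the peak caller estimated, and a peak whose ratio is at least 5 is called strong below. From the fold enrichment and the p-value of each peak, the number of reads at the summit and the background were solved separately, for 35766 of the 35808 peaks in the list and for all 1036 peaks of the X-specific part. The background had a list-wide minimum of 62.8 reads. For a peak at that minimum the fold enrichment follows the reads at the summit alone.

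At the boundary itself, the last peak before 2.5 Mb lay at XIX:2480215-2480429, with a fold enrichment of 2.92 and 186 reads at its summit. The first peak past it lay at XIX:2561427-2562929, with a fold enrichment of 10.4 and 666 reads. Both had the minimum background.

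Peaks were present along the whole X-specific part, at a density within the range of the autosomes, and the strong ones had fewer reads at their summits. For the comparison, chromosome XIX was taken from 2.5 Mb to 2.5 Mb before its last peak (864 peaks) and each of the 20 autosomes without 2.5 Mb at either end (17382 peaks). It had 56.7 peaks per Mb, and the autosomes had 61.9 ± 5.23 (SD, n = 20 chromosomes), from 52.5 on chromosome II to 74.8 on chromosome XI. The ratio to the autosome median was 0.914 and lay within the spread between chromosomes (two-sided exact permutation test over 21 chromosomes, p = 0.286, Benjamini-Hochberg adjusted over 10 results 0.408). Chromosomes of 1 merged list are not replicate samples, and 0.0476 is the smallest p that 21 chromosomes can give.

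The share of strong peaks lay inside the autosome range. Of the peaks in the inner autosomes 44.3% were strong, and on the X-specific part without its far 2.5 Mb the share was 45.9%, with an autosome range from 37.7% to 51.2% (exact permutation p = 0.905). Over all 1036 peaks of the X-specific part 455 were strong and 581 weaker. Over all peaks, strong and weaker, the median fold enrichment was 4.53 against an autosome median of 4.18, a ratio of 1.08 (exact permutation p = 0.524). Adjusted, these p-values were 0.905 and 0.655. Neither value stood apart from the autosomes, and both ratios turned to the other side of 1 under other settings, among them to 0.965 and 0.982 with the far 2.5 Mb kept.

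The level of the strong peaks differed from that of every autosome. Their median was 613 reads at the summit, and the autosomes had 793 ± 23.2 (SD, n = 20 chromosomes), from 756 on chromosome V to 834 on chromosome XVII. The ratio to the autosome median was 0.770 (exact permutation p = 0.0476, the smallest possible, adjusted 0.119). The median fold enrichment of the same peaks was 8.99, below all 20 autosomes, which ranged from 10.2 to 11.6, a ratio of 0.827 (exact permutation p = 0.0476, adjusted 0.119). Chromosome XIX thus ranked last of 21 in both, and neither passed 0.05 after adjustment. With 21 chromosomes and 10 results, an adjusted value could pass only if all 10 results had the smallest p. The adjustment therefore could not decide on either result.

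A fold minimum chooses strong peaks by the ratio, and a lower background asks for fewer reads. At the minimum background 319 reads gave a fold enrichment of 5, and at a background of 83 reads, the median of those above the minimum on the X-specific part, 420 reads did. The comparison was therefore repeated separately for strong peaks at the minimum and above it, a choice made after the values had been seen. The background is alike only among peaks at the minimum, and above it the background still varied from peak to peak. Among strong peaks at the minimum the median was 574 reads on chromosome XIX (273 peaks), and the autosomes ranged from 677.5 to 784, a ratio of 0.786 (exact permutation p = 0.0476). Among strong peaks above the minimum it was 711 reads (124 peaks), and the autosomes ranged from 810.5 to 922, a ratio of 0.831 (exact permutation p = 0.0476). In both classes chromosome XIX lay below every autosome.

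With a fold minimum of 10 in place of 5, the difference in level among the peaks that passed was smaller and the difference in their number larger. The ratio of the median reads was then 0.941 (exact permutation p = 0.0476) and that of the median fold enrichment 0.962 (exact permutation p = 0.0952). On the X-specific part without its far 2.5 Mb, 18.1% of the peaks had a fold enrichment of at least 10, against an autosome median of 25.9%, a ratio of 0.697 (exact permutation p = 0.0476).

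The distribution of reads at the summits of strong peaks was shifted over most of its range. Over the whole X-specific part the quartiles of the strong peaks were 470 and 850.5 reads around a median of 626, and over the inner autosomes they were 569 and 1070 around a median of 794. The 90th percentiles were 1161 and 1361 reads. Counted over all peaks, strong or not, 8.98% of the peaks of the X-specific part had at least 1000 reads (95% Wilson interval 7.38% to 10.9%), against 13.8% of the inner autosome peaks (13.3% to 14.4%). These intervals cover counting error only. The far end of the X-specific part was kept in these values, and the ends of the autosomes were not. The median over all peaks was 312 reads, inside the autosome range of 280 to 419, with 4 autosomes lower.

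**Figure D1:**
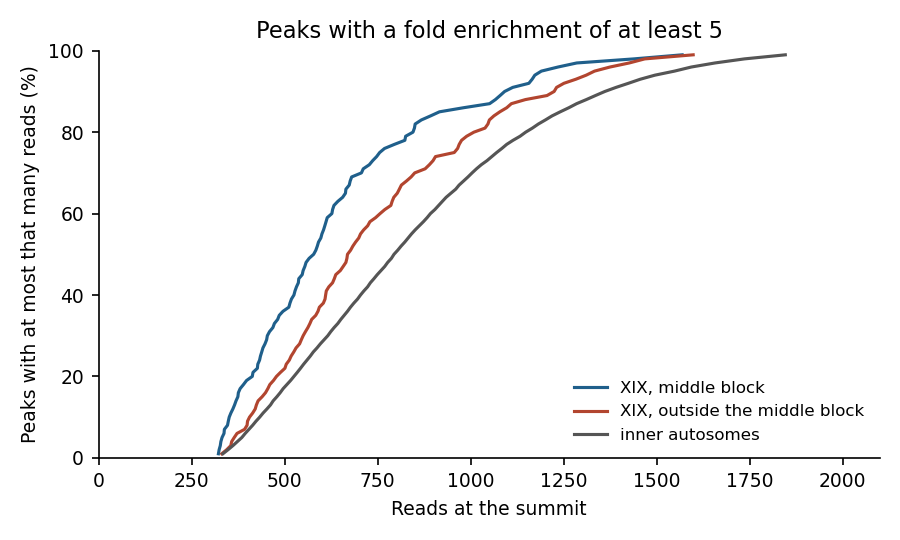
Cumulative share (%) of peaks enriched at least 5-fold by the number of reads at the summit, for the middle block of chromosome XIX (4.5 to 11.5 Mb, 196 peaks), for the X-specific part outside it (259 peaks) and for the inner autosomes. The medians are 578, 669 and 794 reads, and the curves keep that order up to the 90th percentile.

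Peaks were narrower and further apart by their medians, within the spread between chromosomes. The median width was 733.5 bp against an autosome median of 816.75 bp, a ratio of 0.898, and 1 autosome was lower (exact permutation p = 0.143, adjusted 0.238). The median distance from a peak to the next was 8110 bp against 6453 bp, a ratio of 1.26, and 1 autosome was higher (exact permutation p = 0.0952, adjusted 0.190). Peaks covered 5.18% of the bases, below all 20 autosomes, whose median was 6.35% and whose lowest value was 5.33% on chromosome XXI. That ratio was 0.815 (exact permutation p = 0.0476, adjusted 0.119). It was past 0.05 before adjustment in this setting, and in 5 of its 6 alternatives, with ratios from 0.739 to 0.828, it was not. With the far end kept, peaks covered 5.24% of the bases, still below all 20 autosomes (exact permutation p = 0.0952). The test is two-sided, and chromosome XI, at 7.70%, was then further from the median of the others on the high side.

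Width was also taken for strong and weaker peaks apart, without a test. Over the whole X-specific part strong peaks had a median width of 1318 bp, below all 20 autosomes (1424.5 to 1689.5 bp), and weaker peaks had 394 bp, inside the autosome range of 357 to 426 bp. From 2.5 to 4.5 Mb alone, strong peaks had 1534.5 bp, wider than on 12 of the 20 autosomes. The X-specific part kept its far end here, and the autosomes were taken without their ends. The widest peaks were at XIX:8844146-8848158 (4013 bp, 1163 reads), XIX:8575982-8579916 (3935 bp, 1529 reads) and XIX:13422585-13426297 (3713 bp, 1464 reads). Neighbouring peaks were less than 1 kb apart in 15.2% of cases, against 18.9% in the inner autosomes.

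The background differed more than the number of peaks did. In the inner autosomes 37.2% of the peaks had a background at the minimum, and among strong peaks 48.2%. On chromosome XIX without its far 2.5 Mb the share was 60.3%, above all 20 autosomes, which ranged from 32.1% on chromosome IV to 42.1% on chromosome V. The ratio to the autosome median was 1.56 (exact permutation p = 0.0476, adjusted 0.119). This measure was added after the background had been recovered and seen. The median background of strong peaks showed little of it, with 62.8 reads against 63.0 (exact permutation p = 0.667, adjusted 0.741), and the minimum bounds it from below.

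**Figure D2:**
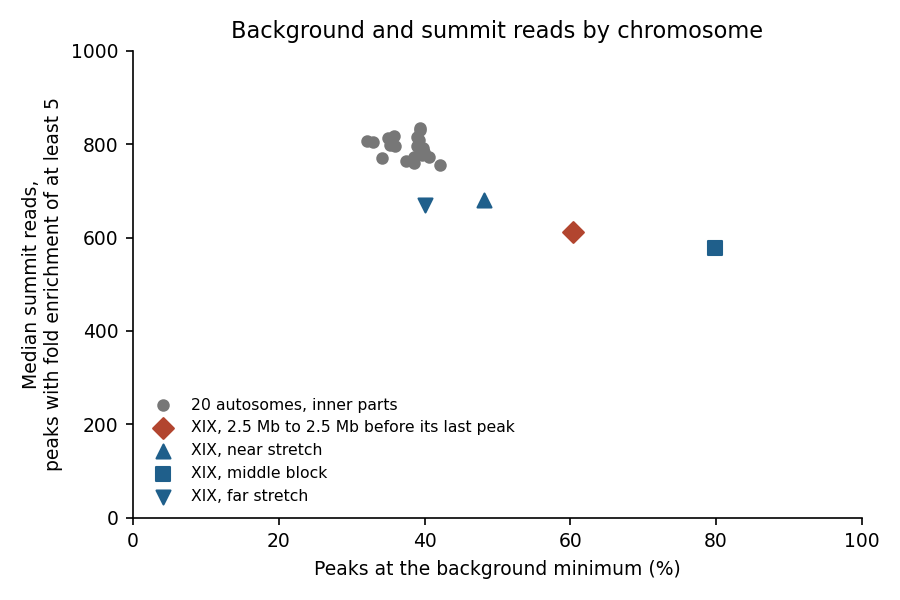
Share of all peaks whose background was at the minimum (%, horizontal axis) and median number of reads at the summits of strong peaks (vertical axis) for the inner parts of the 20 autosomes (grey) and for chromosome XIX without its far 2.5 Mb (red). Blue points are 3 stretches of the whole X-specific part, of which the far stretch keeps the far 2.5 Mb. The autosomes sit between 32.1% and 42.1% and between 756 and 834 reads, and all 4 points of chromosome XIX lie below them in reads.

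In 1 Mb steps from the boundary, the number of peaks went up and down, and no whole step was outside the autosome range. The 17 whole steps held 34 to 79 peaks with a median of 54, and the 272 whole steps of the inner autosomes held 16 to 108 with a median of 61. All 17 lay between the 5th and 95th percentiles of the autosome steps, 33.55 and 92.45 peaks per Mb, and 11 were below the autosome median. The densest were the steps from 8.5 and from 14.5 Mb with 79 peaks each and from 9.5 Mb with 73. The sparsest were those from 13.5 Mb with 34, from 10.5 Mb with 37 and from 15.5 Mb with 40. The longest run of neighbouring steps above the autosome median was that of the 3 steps from 7.5 to 10.5 Mb, with 71, 79 and 73 peaks. The last step, 0.741 Mb long, held 76 peaks or 102.6 per Mb.

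**Figure D3:**
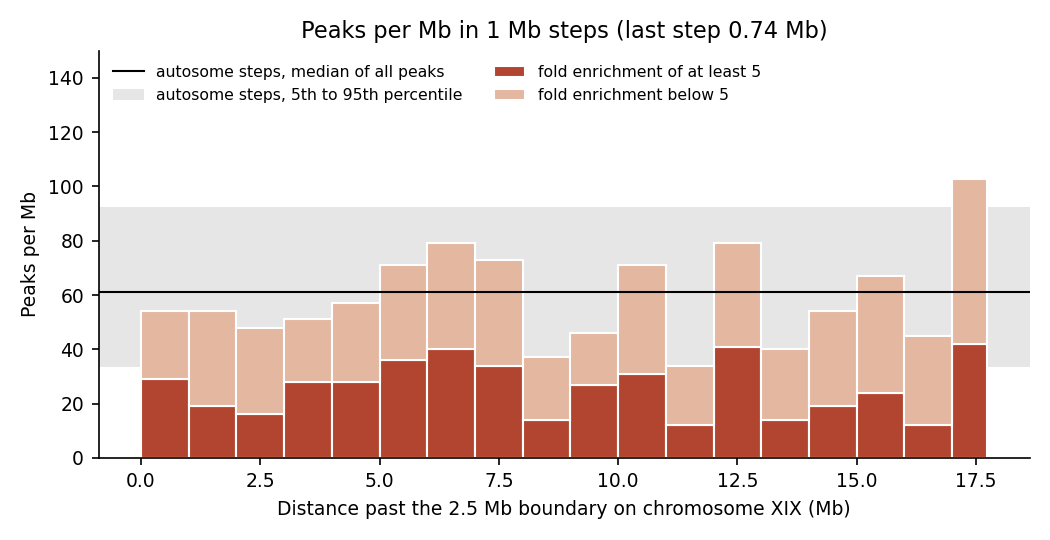
Peaks per Mb (vertical axis) in 1 Mb steps along the X-specific part, split into peaks enriched at least 5-fold (dark) and below 5 (light), with the median (line) and the 5th to 95th percentiles (band) of 272 inner autosome steps. The 17 whole steps stay within the band, between 34 and 79 peaks per Mb, and the short last step is above it.

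Width, spacing and fold enrichment also varied from step to step. The median width of a step ranged from 473 bp (from 18.5 Mb) to 908 bp (from 14.5 Mb), and 14 of the 17 whole steps were below the autosome step median of 802.75 bp. The other narrow steps began at 3.5 Mb (483.5 bp) and 4.5 Mb (612.5 bp), and the other wide ones at 11.5 Mb (895 bp) and 5.5 Mb (820 bp). The median distance between peaks was longest in the steps from 15.5 Mb (15946 bp), 10.5 Mb (14510.5 bp) and 11.5 Mb (11439 bp). Among the whole steps it was shortest in those from 14.5 Mb (5000.5 bp), 8.5 Mb (5604.5 bp) and 17.5 Mb (5697 bp), and in the short last step it was 3286 bp. For width, the steps from 18.5 and 3.5 Mb were below the 5th percentile of the autosome steps, 541 bp. For distance, those from 15.5 and 10.5 Mb were above the 95th percentile, 13806 bp.

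The median fold enrichment of all peaks in a step was highest from 11.5 Mb (6.34), 2.5 Mb (6.16) and 5.5 Mb (6.10). It was lowest from 13.5 Mb (2.74), 18.5 Mb (2.83) and 15.5 Mb (2.88). Autosome steps ranged from 2.06 to 9.96 with a median of 4.11, so that high and low steps of chromosome XIX lay inside their range. The lowest step was below their 5th percentile of 2.76, with 13 of the 272 autosome steps lower. The highest was below their 95th percentile of 6.54.

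The share of peaks at the background minimum, in contrast, was high in a run of 7 neighbouring steps. From 4.5 to 11.5 Mb the shares of the steps were 77.1%, 84.3%, 87.7%, 80.3%, 73.4%, 79.5% and 78.4%. Each of the 7 was above the highest of the 272 autosome steps, which was 61.4%. On the near side the step from 2.5 Mb had 40.7% and that from 3.5 Mb 55.6%. On the far side the step from 11.5 Mb had 58.7%, and those from 12.5 to 19.5 Mb lay between 22.4% and 39.4%, around the autosome median of 37.5%. The last, short step had 57.9%.

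**Figure D4:**
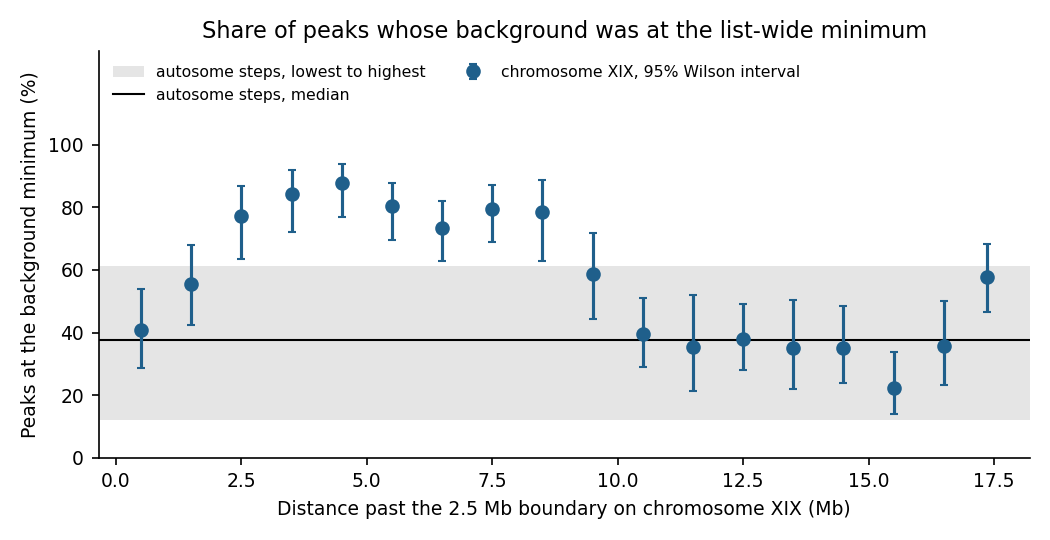
Share of peaks whose background was at the list-wide minimum (%, vertical axis) in each 1 Mb step along the X-specific part, with 95% Wilson intervals that cover counting error only, and the median (line) and full range (band) of 272 inner autosome steps. The 7 steps from 2 to 9 Mb past the boundary have 73.4% to 87.7%, above the band, which ends at 61.4%.

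These 7 steps are called the middle block below. It was drawn from the shares after they had been seen, so its values are a description with no test. It held 416 peaks, 332 of them at the minimum (79.8%, Wilson interval 75.7% to 83.4%). The share was high among strong peaks (169 of 196, 86.2%) and among weaker ones (74.1%). Among strong peaks alone the 7 steps had 81.25% to 92.9%, inside the autosome range. The highest autosome step had 93.3%, and 1 to 3 autosome steps were above each of the 7. The near stretch from 2.5 to 4.5 Mb had 48.1% of its 108 peaks at the minimum, and the far stretch from 11.5 Mb on 40.0% of its 512.

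The shares at the edges of the block changed over several 0.5 Mb steps, and whether an edge was gradual or sharp could not be told. In 0.5 Mb steps from 2.5 Mb the shares were 39.1%, 41.9%, 48.1%, 63.0% and 82.6%, and in those from 11 Mb they were 69.6%, 66.7%, 53.6%, 48.7% and 28.1%. Such steps held 10 to 57 peaks each, and the first 0.5 Mb past the boundary, with 39.1%, were close to the median of the autosome steps. Wilson intervals of neighbouring steps overlapped. In those from 3.5, 4 and 4.5 Mb they were 30.7% to 66.0%, 44.2% to 78.5% and 62.9% to 93.0%. By the same rule applied to 0.5 Mb steps, with a highest autosome step of 73.9% among 552, the longest run went from 5.5 to 8.5 Mb, 3 Mb in place of 7. In all, 11 steps of 0.5 Mb were above every autosome step.

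The strong peaks of the middle block were no sparser than those of the stretches beside it, and had a lower median of reads. The block was drawn by its background, and a lower background asks for fewer reads. Both values therefore depend in part on how the block was drawn. It had 28.0 strong peaks per Mb, against 24.0 in the near and 24.1 in the far stretch and 27.5 in the inner autosomes. Their median was 578 reads at the summit, against 680.5 in the near and 669 in the far stretch. Their median width was 1191.5 bp, against 1534.5 and 1375 bp, and their median fold enrichment was 8.57, against 9.38 and 9.48. With only strong peaks at the minimum counted, the median was 545 reads in the block (169 peaks) and 612 outside it (134 peaks). Above the minimum the order was the opposite, with 738 reads in the block (27 peaks) and 713 outside it (125 peaks). The pooled inner autosomes had 732 reads at the minimum and 857 above it, higher than either stretch in both classes.

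Step by step, the median reads of strong peaks ranged from 492 to 751 in the 17 whole steps, and all 17 were below the autosome step median of 795.5. The lowest were from 9.5 Mb (492), 8.5 Mb (512) and 6.5 Mb (537.5), and with the step from 11.5 Mb (538) these 4 were below every one of the 272 autosome steps, the lowest of which had 542. The highest were from 17.5 Mb (751), 14.5 Mb (743) and 16.5 Mb (704). The 7 steps of the middle block ranged from 492 to 667.5 and the other 10 from 538 to 751, so that the ranges overlapped.

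Over the 17 steps, the share at the minimum and the median reads of strong peaks went in opposite directions (Pearson's r = −0.64, Spearman's rho = −0.58). Over the 272 autosome steps the values were −0.20 and −0.18. The steps are neighbours in 1 list and both measures come from the same fold enrichments and p-values, so the correlations are descriptions. Of the autosome steps, the 14 with the highest shares at the minimum (52.8% to 61.4%) had 583 to 919 reads with a median of 751.5.

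**Figure D5:**
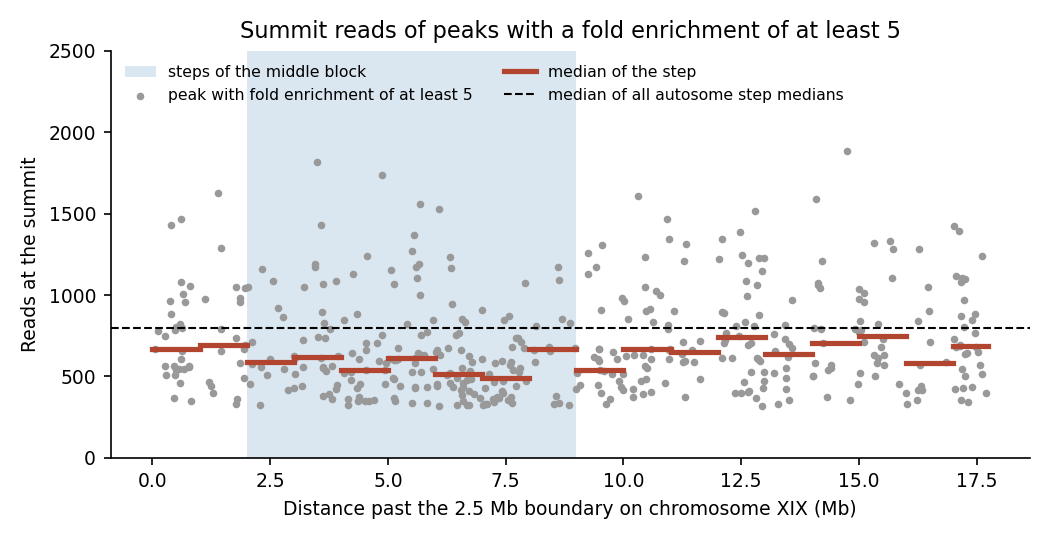
Reads at the summit (vertical axis) of each peak enriched at least 5-fold along the X-specific part (grey points), with the median of each 1 Mb step (red) and the median of 272 autosome step medians (dashed, 795.5 reads). The shaded steps are the middle block, and all red lines lie below the dashed line.

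The number of reads at the summits was also compared without any fold minimum, over the 20 peaks with the most reads in each step. The median was 664.5 reads over the 7 steps of the middle block (range 552.5 to 836), 678.75 over the other 10 (415.5 to 1073.5) and 918.25 over the autosome steps. All 7 steps of the block and 8 of the other 10 were below the autosome median. With the 10 highest peaks the medians were 841 and 998.75 against 1171. The highest peaks were taken from steps that held different numbers of peaks, 34 to 79 on chromosome XIX (median 54) and 16 to 108 on the autosomes (median 61), so that these medians also depend on how many peaks a step had. With the 20 highest peaks, the lowest value outside the block was that of the step from 18.5 Mb (45 peaks) and the highest that of the step from 14.5 Mb (79 peaks). With the 10 highest, the step from 17.5 Mb had 1682 reads, above 270 of the 272 autosome steps. In that step 6 peaks had a background of at least 4 times the minimum, and a ranking by reads keeps such peaks.

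The highest peaks of the X-specific part lay both inside and outside the block. The highest fold enrichment was 28.4 at XIX:5985693-5987845, in the middle block, with 1817 reads and the minimum background. It was followed by XIX:17253625-17257263, with 26.9 and 1884 reads over a background of 69, and by XIX:16592535-16594087, with 24.4 and 1590 reads over 64. The next were XIX:8575982-8579916, with 23.9 and 1529 reads, and XIX:6078347-6080768, with 22.4 and 1429 reads, both in the block and at the minimum. A fold enrichment of at least 20 was reached by 16 of the 1036 peaks (1.54%, Wilson interval 0.953% to 2.49%), against 3.58% in the inner autosomes (3.31% to 3.86%). The 1036 peaks include the far end, and the inner autosomes leave out both ends.

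At the other extreme, some peaks stood on a very high background. A background of at least 4 times the minimum was found at 18 peaks (1.74%), against 204 in the inner autosomes (1.17%). That share lay inside the autosome range of 0.270% to 2.78%, with 4 autosomes higher. The X-specific part kept its far end here, and the autosomes were taken without their ends. The far 2.5 Mb held 9 of the 18, or 5.23% of its 172 peaks. Of the 18, 6 lay within 15.8 kb at XIX:18223396-18239238, with backgrounds of 376 to 816 reads, 954 to 2490 reads at their summits and fold enrichments of 2.53 to 3.56. This run was picked out after its values had been seen. The highest background, 2446 reads, was at XIX:14110893-14111115, where 2662 reads gave a fold enrichment of 1.09. Peaks of this kind have many reads and a low ratio.

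With all peaks counted, long stretches without a peak were scarcer than on the inner parts of most autosomes, and with strong peaks only they were not. The X-specific part had 14 peak-free stretches of at least 100 kb, or 7.89 per 10 Mb, and the autosomes had a median of 10.4 with a range from 5.13 to 16.4. They took up 10.3% of its length, against 14.2%, and 1 autosome was lower in each measure. In all these counts the X-specific part kept its far end, and the autosomes were taken without their ends. The parts were therefore unlike, and the ranks among autosomes hold for this choice only. When only peaks with a q-value up to 1e-10 were counted, the X-specific part had 11.3 such stretches per 10 Mb against a median of 11.5 (8 autosomes lower). They still took up less of its length than on most autosomes, 15.3% against 16.9% (4 lower). With strong peaks only, there were 23.7 per 10 Mb against 23.4 (14 lower), and they took up 41.4% against 41.2% (10 lower). The 5 longest were XIX:19070810-19283912 (213103 bp), XIX:14351321-14518480 (167160 bp), XIX:16333820-16481668 (147849 bp), XIX:5718307-5865485 (147179 bp) and XIX:2621292-2756822 (135531 bp). The longest was shorter than the longest on 12 of the 20 autosomes. Assembly gaps were not taken out of these lengths.

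Empty windows were few with all peaks counted, and the densest window lay inside the autosome range. In windows of 100 kb, 3 of 178 held no summit (1.69%), against 139 of 2793 in the inner autosomes (4.98%). With strong peaks only, 17.5% of the windows were empty against an autosome median of 17.8%. Here too the X-specific part kept its far end, and the autosomes were taken without their ends. The 5 windows with the most summits (2.81%) held at least 14 each, and 151 windows of the inner autosomes (5.41%) did so. The cut of 14 equals the lowest count among these 5, so the shares are a description only. The densest began at 19600001, with 17 summits of which 8 were strong. The densest window of each autosome held 14 to 28. Those at 9100001 and 18200001 had 15 each, and those at 7600001 and 15400001 had 14. They differed in their background. In the window from 19600001, 10 of 17 peaks were at the minimum, with 11 of 15 from 9100001 and 13 of 14 from 7600001. It was 6 of 14 from 15400001 and 0 of 15 from 18200001, which holds the run of peaks on high background. In the step that holds each window, the share at the minimum was 57.9%, 73.4%, 80.3%, 38.0% and 22.4%, in the same order. Whether a dense window differed from its surroundings was not tested.

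The far end of the chromosome lay inside the range of autosome ends in density and outside it in reads. Its last 2.5 Mb held 68.8 peaks per Mb, and the 40 ends of the same length on the autosomes had a median of 93 with a range from 41.2 to 186.4. Its strong peaks had a median of 680.5 reads, below all 40 ends, which ranged from 717 to 1048, and a median fold enrichment of 9.33, also below all 40 (9.37 to 13.8). The share at the minimum was 39.5%, above 39 of the 40. At the opposite end, the 2.5 Mb before the boundary held 107.6 peaks per Mb, 23.4% of them at the minimum, and their strong peaks had a median of 1070 reads. That was above all 40 autosome ends, while the far end of the same chromosome was below all 40.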

How the data were processed

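Per the labels and the study's methods, reads of the 6 ATACseq libraries were mapped to gasAcu1 (aligner not given in the sources used here), freed of mitochondrial reads and PCR duplicates, down-sampled to a common depth, merged and passed to MACS2. The authors deposited for each peak a fold enrichment (a ratio), a −log10 p-value, a −log10 q-value (largest q-value 0.0499) and a score (10 times that −log10 q-value, cut to an integer). The sources do not say whether the naked DNA was the background. Depth per library and the naked DNA libraries were not analysed here. The study corrected scaffold orientations for its crossover maps, and whether the peak list has them is not stated. Chromosome lengths run to the last peak.

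Reads at the summit and background were solved from fold enrichment and p-value with a Poisson upper tail. Whole numbers were obtained only after a scale of 0.9976 per read, estimated from 7353 peaks at the background minimum, had been added after the values were seen and other forms of the equations had failed; all of these peaks then came out whole within 0.05 reads. Of 35808 peaks 42 were not solved, and 42 had more than 1 solution, of which the closest was used. The library behind the background is not named in the list.

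Chromosome XIX was compared with 20 autosomes by the ratio to their median, with a two-sided exact permutation test over 21 chromosomes, adjusted by Benjamini-Hochberg over 10 results. Peaks named are the 5 with the highest fold enrichment, the 3 widest, the 5 longest peak-free stretches, the 5 densest windows of 100 kb and those next to 2.5 Mb. The peak with the highest background and the run of peaks on high background were picked after their values were seen. For steps, the 3 highest and 3 lowest are named. Members and measures were chosen with earlier results of these data known. Alternatives kept the far end, kept one end, trimmed 5 Mb, required a q-value of at most 1e-10 or a fold enrichment of at least 10, joined peaks closer than 500 bp, or used 0.5 Mb steps. Solving and ranking were tested on simulated data. No sequences or genes are given, since no genome of this build was used. Computations ran in Python (3.11.15) with SciPy (1.17.1), NumPy (2.4.6), pandas (2.3.3) and, for plots, Matplotlib (3.10.9).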

Additional observations from a re-analysis of the deposited data

How the results depend on the processing

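Of 56 tested ratios under alternatives, 40 kept their direction and their side of 0.05 before adjustment. Of 10 values without a test, 6 stayed within 1.5 times the main value. Of these 66, 11 were added after seeing the data. The 6 include the start and end of the middle block, which are positions in Mb, although its length went from 7 to 3 Mb. They also include the highest density, which went from 79 to 114 peaks per Mb and moved to the 0.5 Mb step from 19.5 Mb. The ratio for the reads of strong peaks kept p = 0.0476 (exact permutation test) in all 7 of its alternatives (0.761 to 0.941), and that for the share at the background minimum in all 5 (1.43 to 1.76). The stricter q-value left the reads, fold enrichment and background of strong peaks exactly at their main values. It was therefore no check of these ratios, which are counted among the 40. The density of peaks had ratios of 0.864 to 0.971 and never passed. The share of strong peaks reversed to 0.965 with the far end kept, 0.965 with a q-value of at most 1e-10, 0.983 with peaks joined and 0.697 with a fold minimum of 10. The median fold enrichment of all peaks reversed to 0.982, 0.943 and 0.980 in the first 3 of these. The share of bases in peaks no longer passed at 0.825 (far end kept), 0.739 (one end kept on every chromosome), 0.809 (5 Mb trimmed), 0.828 (stricter q-value) and 0.821 (length from first to last peak), and the fold enrichment of strong peaks at 0.962 with a minimum of 10. Spacing passed at 1.44 with one end kept on every chromosome, and width at 0.842 with the stricter q-value and at 0.842 with peaks joined. In 0.5 Mb steps the sparsest had 20 peaks per Mb in place of 34 and the middle block was 3 Mb long. Counting strong peaks only gave 42 peak-free stretches in place of 14, and 9 summits in the densest window in place of 17, since fewer peaks were counted. The cause of the other changes was not tested. Taking assembly gaps out of the lengths was not run, and no pool could be left out of a merged list. No paired analysis was possible because each peak has only its merged value.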
